A study of Bos taurus with 9 samples.

Results

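The genes described here encode the constitutive proteasome subunits, the ubiquitin-conjugating (UBE2) enzymes and the ubiquitin-specific proteases (USP). They were taken by symbol, as every gene whose probe set is annotated with a single symbol starting with PSMA, PSMB, PSMC, PSMD, UBE2 or USP, leaving out the immunoproteasome subunits PSMB8, PSMB9 and PSMB10 and the ISG15 protease USP18. The rule gave 81 of the 9155 genes named on the array, with 6 PSMA, 7 PSMB, 6 PSMC, 10 PSMD, 26 UBE2 and 26 USP genes. The rule itself uses symbols and no measured value, but it was written with earlier results of these data known, and the 4 genes it leaves out are described below. A gene is given by its brightest probe set, since 24 of the 81 had several.

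Expression was measured on 9 Affymetrix bovine arrays, 1 per sample, of endometrial stromal and epithelial cells grown together at 3 parts to 1. The endometrium was from 9 Holstein/Polish Black and White cows, taken between day 2 and day 5 of the cycle, and each sample was a pool from 3 cows. For 6 h the cells received phosphate-buffered saline (Control), lysophosphatidic acid at 1e-06 M (LPA), or the same LPA with 1000 antiviral units of interferon tau, for which the labels give no volume (LPA+IFNt), with 3 arrays in each group. LPA is a lipid signal sensed by receptors on the cell surface. Interferon tau is a type I interferon secreted by the ruminant conceptus. Cells given interferon tau without LPA were not analysed here, and every LPA+IFNt array carries both agents. Since 9 cows gave 9 pools of 3, some pools share cows, and the p-values measure only the spread between these pools.

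The proteasome degrades proteins that carry ubiquitin chains. Its 20S core is built of rings of alpha subunits (PSMA), which form the gate, and beta subunits (PSMB), of which PSMB5, PSMB6 and PSMB7 carry the proteolytic sites. The 19S cap holds a ring of ATPases (PSMC) and further subunits (most PSMD genes) that bind, unfold and deubiquitinate the substrate. UBE2 enzymes take ubiquitin, or a relative such as ISG15, from an activating enzyme and pass it to a substrate with the help of a ligase, and USP enzymes remove it. Under interferons, cells make the ubiquitin-like ISG15 with its own conjugation enzymes, and PSMB8, PSMB9 and PSMB10 can take the places of PSMB5, PSMB6 and PSMB7 in newly built cores, PSMB8 that of PSMB5, PSMB9 that of PSMB6 and PSMB10 that of PSMB7.

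Markers of the 2 labelled cell types were present. All 13 measured epithelial and all 15 stromal markers lay above 2.80 on at least 1 array, the highest value of the array's bacterial trp control probe sets. Of the others, 7 of 13 leukocyte and 7 of 8 endothelial markers never did, PECAM1, CDH5, VWF and CD3E among them. The other 6 leukocyte markers, CD53 among them, lay above that level in every group. Array medians lay between 4.29 and 4.37 and arrays correlated with r of 0.991 to 0.999. All values below are on the log2 scale, and a level is not compared between genes.

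Of the 81 genes, 78 rose above the trp level on at least 1 array. USP2, USP4 and USP30 did not, with values of 2.02 to 2.12, 2.40 to 2.51 and 2.14 to 2.29, and no change is read from them. The spread within groups was that of the array at large, with a median SD of 0.06 in Control, 0.08 in LPA and 0.07 in LPA+IFNt against 0.06, 0.07 and 0.06 over all probe sets. USP37 had the widest spread between replicates, with a pooled SD of 0.42.

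With LPA alone, none of the 81 genes passed the threshold, an adjusted p under 0.05 in limma over all 24016 probe sets, where 0.0708% of all probe sets were called. PSMD13 alone passed when LPA replicate 2 was left out (adjusted p = 0.0428), and USP37 alone when arrays were centred on spike-in probe sets. That centring called 0.90% of all probe sets. The spike-in means of the LPA arrays lay 0.16, 0.22 and -0.23 from the mean over all arrays, and the centring puts that spread into every gene. At an unadjusted p under 0.05 in the fit of all arrays without centring there were 11, or 13.6%, against 8.30% of all probe sets and 10.2% of all named genes by their brightest probe set. The median difference from Control was -0.002 for the 81 and 0.002 over all probe sets. For 72 of the 81, the 95% interval of the difference lay within 0.5 of 0 in both directions, a 1.41-fold change.

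LPA+IFNt against Control called 5 of the 81, or 6.17%, where 5.34% of all probe sets were called. UBE2L6 rose, 1 gene where 2.48% of all probe sets rose, and UBE2H, UBE2T, UBE2E3 and USP46 fell, 4 where 2.86% did. LPA+IFNt against LPA called 10, or 12.3%, where 6.54% of all probe sets were called. UBE2L6 and PSMD10 were higher, and UBE2H, UBE2T, USP46, USP28, USP47, PSMC5, PSMD13 and PSMD6 lower, beside 2.56% and 3.98% of all probe sets. Groups did not overlap for 13, 27 and 19 of the 81 in the comparisons of LPA with Control, LPA+IFNt with Control and LPA+IFNt with LPA, or 16.05%, 33.3% and 23.5%, beside 10.0%, 23.1% and 18.7% of all probe sets and 12.2%, 28.5% and 23.1% of the 9155 named genes, each by its brightest probe set. A single F test over the groups called 8 of the 81, beside 5.99% of all probe sets. Median differences were -0.03 against Control and -0.01 against LPA, beside 0.02 and 0.02 over all probe sets and -0.006 and 0.010 over the named genes by their brightest probe set. Of those named genes, 6.56% were called against Control and 7.91% against LPA. These 2 comparisons share the LPA+IFNt arrays, and LPA arrays enter both LPA comparisons. With the replicate number as a block, 9 were called against Control, the 5 above with PSMD2, UBE2J1, USP28 and USP38, beside 8.68% of all probe sets. Against LPA the block gave 11, beside 9.66% of all probe sets. With each array centred on its spike-in probe sets, the median over all probe sets shifted by 0.11 and 0.13, and 2 were called against Control and 1 against LPA, all higher, beside 3.51% and 4.10% of all probe sets. The spike-in means lay 0.17, -0.14 and 0.06 from the mean over all arrays in Control and 0.04, -0.20 and -0.09 with LPA+IFNt. That spread, too, enters every gene. Leaving out single arrays gave 2 to 5 calls against Control, the 2 without Control replicate 2, and 3 to 11 against LPA, the 3 without LPA replicate 1 or LPA+IFNt replicate 3. Fewer arrays lower the power for every probe set, and the share of all probe sets called was not counted for these fits.

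**Figure D1:**
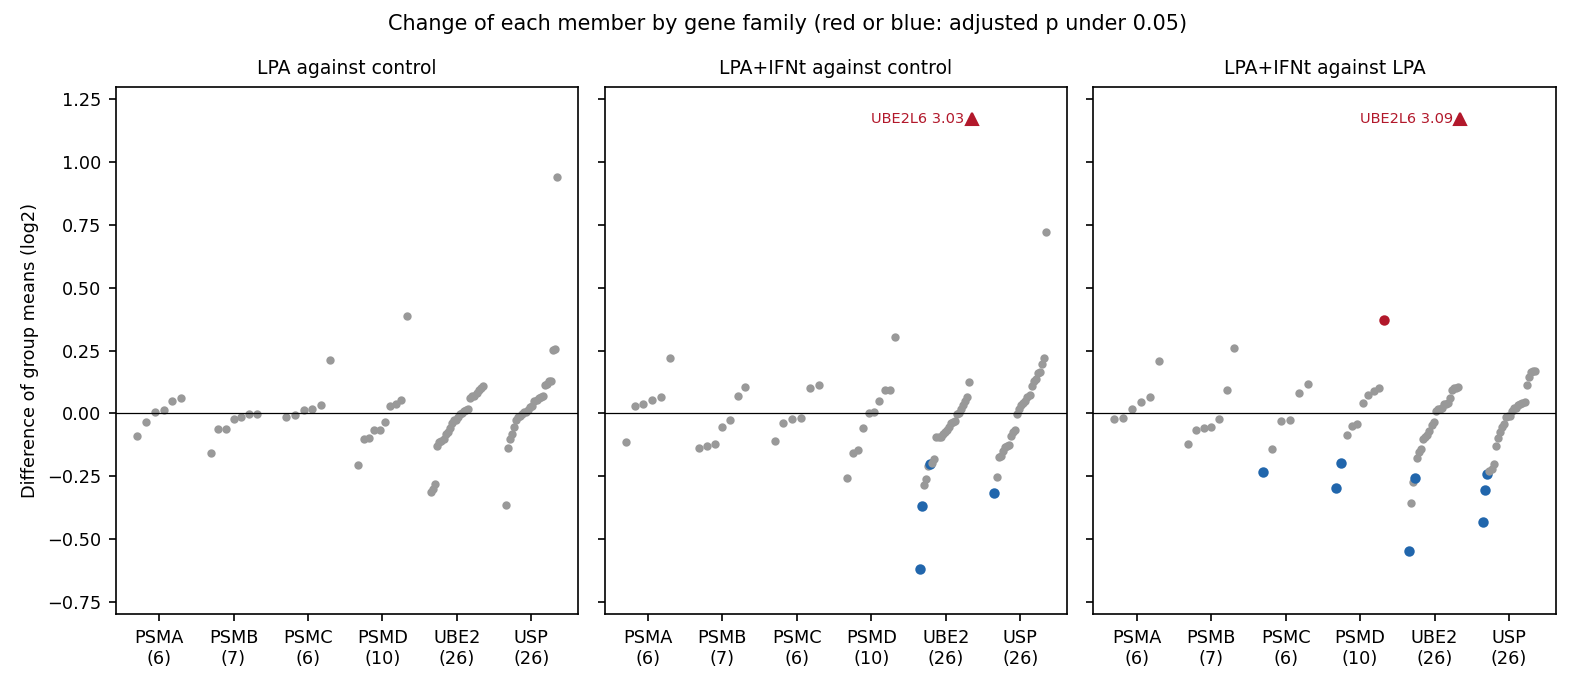
Difference of group means on the log2 scale (vertical axis) for each of the 81 genes, sorted within family along the horizontal axis, with the number of genes in brackets. Points in red (higher) or blue (lower) had an adjusted p under 0.05 in limma, the triangle marks UBE2L6 beyond the axis at 3.03 and 3.09, and most other points lie close to 0. USP37, not called, lies at 0.94 and 0.72 above Control, and its dimmer probe set, not drawn, differed by -0.004 and 0.02. Centring on the spike-in probe sets, which adds 0.11 and 0.13 to every LPA+IFNt difference, turned PSMB6 and PSMB7 positive in both and kept no lower call. It also puts the spread of the spike-in means within groups into every gene, so the lost calls do not come from the shift alone.

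UBE2L6, the conjugating enzyme of the ISG15 pathway, was the gene of the set with by far the largest difference. Its brighter probe set read 6.59, 6.17 and 6.24 in Control and 6.05, 6.26 and 6.52 with LPA. With LPA+IFNt it read 9.36, 9.30 and 9.43. The LPA+IFNt arrays stood apart from all 6 others, and the LPA and Control arrays overlapped. It rose by 3.03 over Control (SE 0.14, adjusted p = 1.18e-05), 8.19-fold, and by 3.09 over LPA (adjusted p = 1.13e-05). A second probe set rose by 3.38 and 3.02, also past the threshold. For LPA alone the difference was -0.06, with a 95% interval from -0.39 to 0.27, and at the second probe set it was 0.37, with an interval from -0.15 to 0.88 and no call.

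UBE2L3, the conjugating enzyme closest to UBE2L6 in name and fold and a partner of HECT and RBR ubiquitin ligases, read 8.08, 7.77 and 7.56 in Control, 7.59, 7.59 and 7.38 with LPA, and 7.59, 7.54 and 7.49 with LPA+IFNt. The groups overlapped, and neither difference from Control passed the threshold, at -0.28 (adjusted p = 0.619) and -0.26 (adjusted p = 0.357). It was chosen for this contrast after its values were seen, as were PSMD1, PSMD14, UBE2J1, UBE2C, UBE2S, UBE2E1, UBE2E2, UBE2V1 and USP37.

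The other changes among conjugating enzymes were small falls. UBE2T, which ubiquitinates the FANCD2 and FANCI pair in DNA crosslink repair, read 9.09, 9.07 and 9.00 in Control, 8.95, 9.02 and 8.86 with LPA, and 8.77, 8.70 and 8.58 with LPA+IFNt. All LPA+IFNt arrays lay below the 6 others. UBE2T fell by 0.37 against Control (SE 0.06, adjusted p = 0.0112) and by 0.26 against LPA (adjusted p = 0.0432). Without Control replicate 2 the first call was lost (adjusted p = 0.0511), and the second was kept only without LPA replicate 3 or LPA+IFNt replicate 1 (adjusted p up to 0.136).

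UBE2H, the conjugating enzyme of the CTLH ligase, read 9.43, 9.17 and 9.29 in Control and 9.30, 8.93 and 9.43 with LPA. It read 8.66, 8.66 and 8.71 with LPA+IFNt, below every other array. The fall was 0.62 against Control (SE 0.12, adjusted p = 0.0291) and 0.55 against LPA (adjusted p = 0.0430). A second, dimmer probe set of UBE2H differed by 0.09 and -0.04 and was not called. Averaging both ended the calls. Of the 9 analyses that left out an array, the call against Control held without LPA replicate 2 or 3 and the call against LPA without LPA replicate 2 (adjusted p up to 0.107 and 0.149 in the others).

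UBE2E3 belongs with UBE2E1 and UBE2E2 to a family of conjugating enzymes with an N-terminal extension. It read 11.81, 11.72 and 11.72 in Control, 11.77, 11.68 and 11.73 with LPA, and 11.61, 11.48 and 11.57 with LPA+IFNt. Its fall of 0.20 against Control (SE 0.05) had an adjusted p of 0.0494, just under the threshold, and leaving out any 1 array ended the call (adjusted p from 0.058 to 0.156). Against LPA it was 0.18 lower, with an adjusted p of 0.0715, and 0.017 in the blocked fit. UBE2E1 differed from Control by -0.07 (adjusted p = 0.239) and UBE2E2 by -0.18 (adjusted p = 0.610).

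Of the 26 UBE2 genes, then, LPA+IFNt against Control called 1 higher and 3 lower, beside 2.48% and 2.86% of all probe sets, and 22 did not pass. UBE2N, which builds K63-linked chains with UBE2V1 or UBE2V2, read 10.17, 10.11 and 10.19 in Control and 10.09, 10.18 and 10.12 with LPA+IFNt, a difference of -0.03 (adjusted p = 0.654). UBE2V1 differed by -0.04. UBE2J1, a conjugating enzyme of ER-associated degradation, read 8.47, 8.32 and 8.22 in Control, 8.59, 8.35 and 8.27 with LPA, and 8.11, 8.04 and 8.00 with LPA+IFNt. The LPA+IFNt arrays were below all others. UBE2J1 differed by -0.29 from Control (adjusted p = 0.161, and 0.019 in the blocked fit) and by -0.36 from LPA (adjusted p = 0.0755, and 0.009 in the blocked fit).

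With LPA alone the smallest p-values among UBE2 genes were those of UBE2D2 and UBE2D4, of the broadly acting UBE2D family, at -0.11 (adjusted p = 0.260) and -0.13 (adjusted p = 0.546). UBE2C and UBE2S, which start and extend chains on substrates of the anaphase-promoting complex, had lower means with LPA, by 0.31 (adjusted p = 0.701) and 0.30 (adjusted p = 0.627). For UBE2C the LPA arrays read 11.40, 11.64 and 10.93 against 11.63, 11.70 and 11.60 in Control. For UBE2S they read 11.16, 11.24 and 10.78 against 11.48, 11.34 and 11.26. LPA replicate 3 was the lowest array for both genes.

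The ubiquitin-specific proteases gave 1 call against Control and 3 against LPA among 26 genes, all lower with LPA+IFNt, beside 2.86% and 3.98% of all probe sets called lower. The single call against Control, 3.85% of the family, is near that share. USP46, which works with the cofactor WDR48, read 9.57, 9.68 and 9.58 in Control, 9.57, 9.65 and 9.57 with LPA, and 9.30, 9.31 and 9.25 with LPA+IFNt. The LPA+IFNt arrays lay below all others and the LPA and Control arrays overlapped. USP46 fell by 0.32 against Control (SE 0.04, adjusted p = 0.00353), 1.25-fold, and by 0.31 against LPA (adjusted p = 0.00423). A dimmer second probe set, at 4.46 to 4.54, differed by 0.05 and 0.03 and was not called.

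USP28, which counters ligases of the SCF-FBXW7 type, was highest with LPA alone. It read 8.35, 8.17 and 8.31 in Control, 8.56, 8.47 and 8.56 with LPA, and 8.10, 8.01 and 8.19 with LPA+IFNt. The LPA arrays lay above all others, and the Control and LPA+IFNt arrays overlapped. The difference of LPA from Control was 0.26 (adjusted p = 0.253), and LPA+IFNt against LPA was a fall of 0.43 (SE 0.06, adjusted p = 0.00663). Against Control it was -0.17 (adjusted p = 0.198, and 0.037 in the blocked fit). The other probe sets of USP28, 2 in number, never rose above the trp level, and averaging all of them ended the call (adjusted p = 0.065).

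USP47 read 9.24, 9.22 and 9.22 in Control, 9.45, 9.22 and 9.35 with LPA, and 9.08, 9.10 and 9.10 with LPA+IFNt. It fell by 0.24 against LPA (SE 0.05, adjusted p = 0.0381), and the difference of -0.13 from Control did not pass (adjusted p = 0.264). With only Control and LPA+IFNt fitted, that difference of USP47 passed. Of the 9 analyses that left out an array, the call against LPA held in 1, without LPA replicate 2 (adjusted p up to 0.111 in the others). USP38 read 9.53, 9.69 and 9.57 in Control, 9.83, 9.93 and 9.79 with LPA, and 9.77, 9.84 and 9.76 with LPA+IFNt, so both treated groups lay above Control. Its differences of 0.25 (adjusted p = 0.195) and 0.20 (adjusted p = 0.0929) did not pass, and the second did in the blocked fit (adjusted p = 0.014). The dimmer probe set of USP38 had another pattern. It differed from Control by 0.02 with LPA and 0.47 with LPA+IFNt, and from LPA by 0.46, without a call.

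USP14, the protease that binds the 19S cap and trims chains there, read 12.34, 12.37 and 12.33 in Control, 12.32, 12.49 and 12.20 with LPA, and 12.54, 12.48 and 12.49 with LPA+IFNt. Its LPA+IFNt arrays lay above Control by 0.16 on average (95% interval 0.0039 to 0.31, adjusted p = 0.286), and over LPA by 0.17 (adjusted p = 0.242, or 0.0202 without LPA replicate 2). With only Control and LPA+IFNt fitted, USP14 passed against Control. At its dimmer probe set LPA+IFNt differed by 0.07 from Control and -0.05 from LPA, without a call. USP15, known from TGF-beta signalling, differed from Control by 0.12 with LPA (adjusted p = 0.590) and 0.13 with LPA+IFNt (adjusted p = 0.238, or 0.0485 without LPA+IFNt replicate 3). The dimmer probe set of USP15 differed from Control by -0.07 with LPA and 0.44 with LPA+IFNt, and from LPA by 0.51, without a call. USP37, a dim probe set, read 2.84, 3.55 and 3.02 in Control, 4.62, 3.65 and 3.97 with LPA, and 4.29, 3.68 and 3.61 with LPA+IFNt. Its difference of 0.94 with LPA was the largest of the set for that comparison, with an SE of 0.30 and an adjusted p of 0.444. The other probe set of USP37 differed from Control by -0.004 with LPA and 0.02 with LPA+IFNt, without a call. USP25, which was to be given in any case, had no probe set under its name alone.

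**Figure D2:**
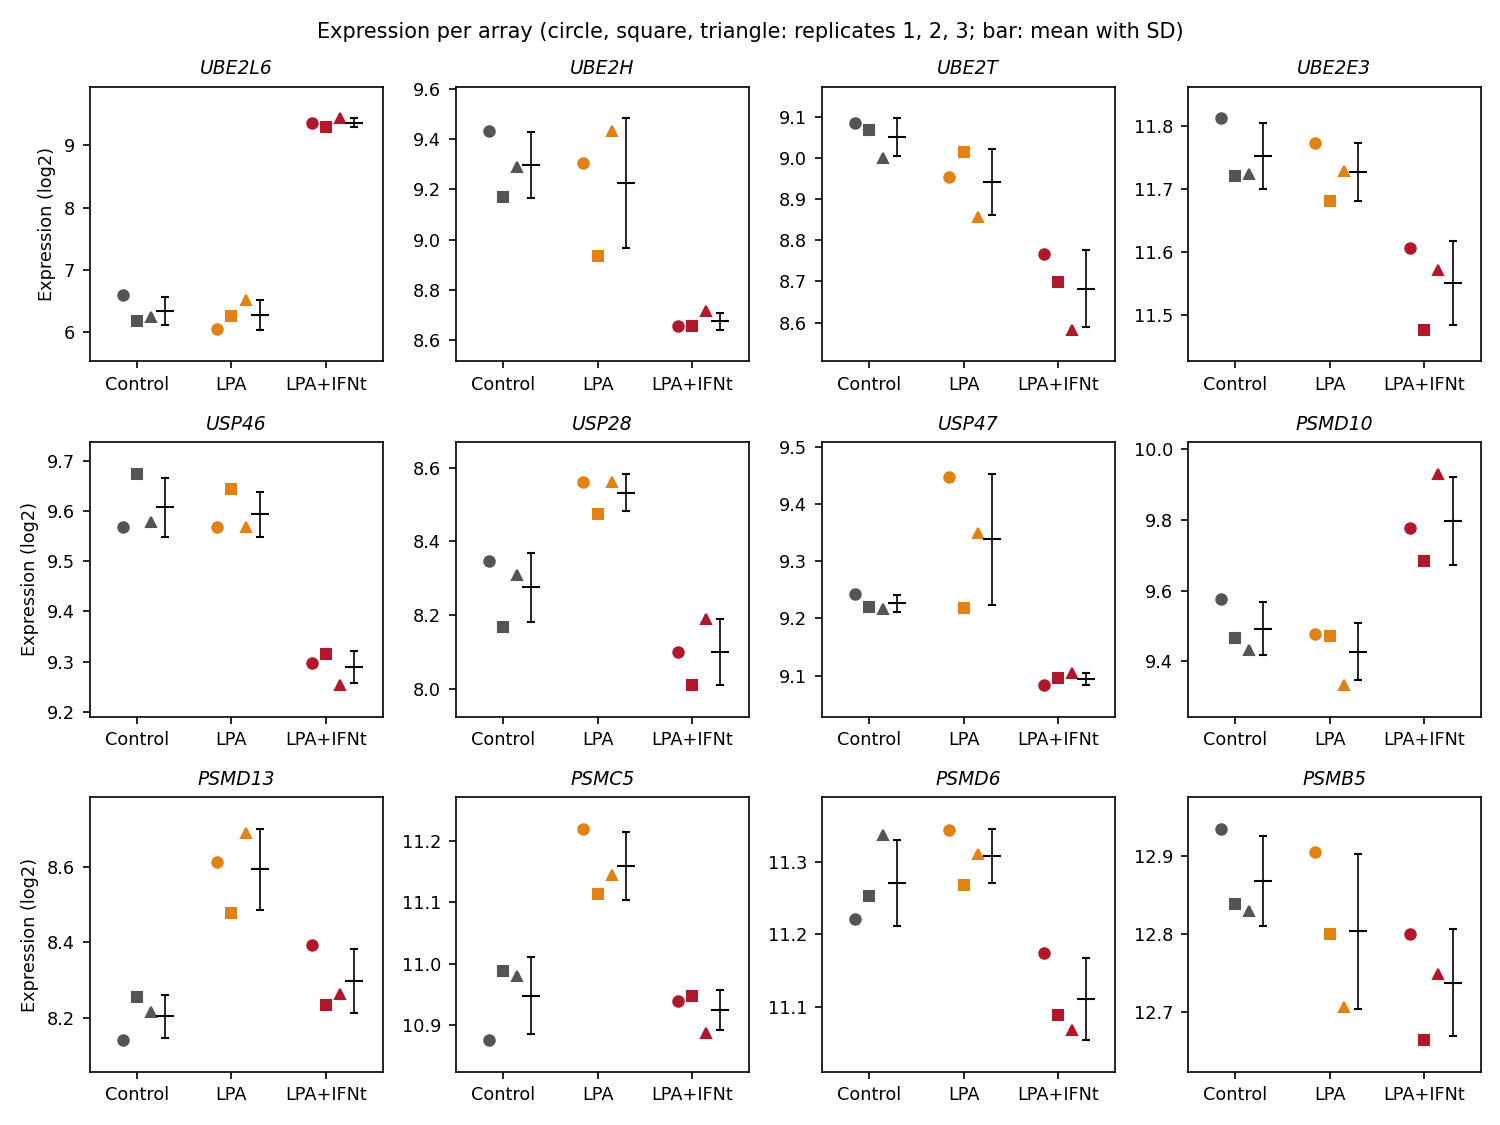
Expression on the log2 scale (vertical axis) on each array for the genes called in LPA+IFNt against Control or against LPA, with PSMB5 beside them. Circles, squares and triangles are replicates 1, 2 and 3 of each group and bars the mean with the SD, and the vertical axes differ between panels: UBE2L6 spans 6.05 to 9.43, whereas USP46 spans 9.25 to 9.68.

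No subunit of the 20S core was called in any of the 3 comparisons with all arrays. The 95% intervals of all 13 PSMA and PSMB genes lay within 0.5 of 0 in each comparison, and reached from -0.32 to 0.26 for LPA, from -0.31 to 0.40 for LPA+IFNt against Control and from -0.29 to 0.42 for LPA+IFNt against LPA. At an unadjusted p under 0.05 there were 0 of 13 for LPA, 1 for LPA+IFNt over Control and 2 for LPA+IFNt over LPA, beside 8.30%, 16.7% and 17.5% of all probe sets.

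PSMB5, the chymotrypsin-like subunit, read 12.93, 12.84 and 12.83 in Control, 12.90, 12.80 and 12.71 with LPA, and 12.80, 12.66 and 12.75 with LPA+IFNt. The difference of LPA+IFNt from Control was -0.13 (95% interval -0.27 to 0.01, adjusted p = 0.341). PSMB6, the caspase-like subunit, read 12.73, 12.83 and 12.83, then 12.82, 12.81 and 12.75, then 12.82, 12.71 and 12.78 in the same order of groups. PSMB7, the trypsin-like subunit, read 12.60, 12.55 and 12.57, then 12.67, 12.59 and 12.45, then 12.55, 12.48 and 12.52. For PSMB6 and PSMB7 the LPA+IFNt difference from Control was -0.03 (95% interval -0.13 to 0.07) and -0.05 (95% interval -0.18 to 0.08).

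Among the alpha subunits, PSMA5 had the smallest p-value with LPA+IFNt. It read 11.74, 11.82 and 11.78 in Control, 11.88, 11.74 and 11.76 with LPA, and 12.10, 11.82 and 12.08 with LPA+IFNt, and replicate 2 of LPA+IFNt lay level with Control. Its differences were 0.22 from Control (adjusted p = 0.193) and 0.21 from LPA (adjusted p = 0.208). Without LPA+IFNt replicate 2 both passed, at 0.31 (adjusted p = 0.0229) and 0.30 (adjusted p = 0.0264). PSMA7 differed from Control by -0.09 with LPA and -0.11 with LPA+IFNt, PSMA4 by 0.06 with LPA, and PSMA1 from LPA by 0.06, none of them called.

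PSMB2, a beta subunit without a proteolytic site, read 12.68, 12.67 and 12.67 in Control, 12.43, 12.67 and 12.45 with LPA, and 12.87, 12.76 and 12.71 with LPA+IFNt. LPA+IFNt lay above both other groups, by 0.10 over Control (adjusted p = 0.503) and 0.26 over LPA (adjusted p = 0.0788, or 0.00941 without LPA replicate 2). PSMB3 differed from Control by -0.06 with LPA and -0.12 with LPA+IFNt, and PSMB4 differed from LPA by 0.09, all without a call.

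The 16 PSMC and PSMD genes hold the assembly chaperones PSMD5, PSMD9 and PSMD10 beside subunits of the 19S cap. They gave 0 of 16 calls against Control for either treatment, with 3 at an unadjusted p under 0.05 in each (8.30% and 16.7% of all probe sets). LPA+IFNt against LPA called 4 of the 16, beside 2.56% higher and 3.98% lower over all probe sets. The chaperone gene PSMD10 was higher, and the subunit genes PSMC5, PSMD13 and PSMD6 were lower. PSMC5, an ATPase of the base, read 10.88, 10.99 and 10.98 in Control, 11.22, 11.11 and 11.15 with LPA, and 10.94, 10.95 and 10.89 with LPA+IFNt. PSMD13, a lid subunit, read 8.14, 8.26 and 8.22, then 8.61, 8.48 and 8.69, then 8.39, 8.23 and 8.26. For both genes the LPA arrays lay above all others and the LPA+IFNt arrays overlapped those of Control.

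PSMC5 fell by 0.24 from LPA to LPA+IFNt (SE 0.04, adjusted p = 0.0188), after a difference of 0.21 from Control to LPA (adjusted p = 0.174), and LPA+IFNt differed from Control by -0.02. Its other probe set never rose above the trp level. Its call was lost when both were averaged and without LPA replicate 1 or 3 or LPA+IFNt replicate 1 or 3 (adjusted p up to 0.0712). PSMD13 fell by 0.30 (SE 0.07, adjusted p = 0.0400), after 0.39 from Control to LPA (adjusted p = 0.0995), and LPA+IFNt differed from Control by 0.09. The difference of 0.39 was the closest of the 81 genes to the threshold for LPA alone, and without LPA replicate 2 it passed (adjusted p = 0.0428). With the replicate block the call of PSMD13 against LPA was lost (adjusted p = 0.057), and of the 9 analyses that left out an array it held without LPA replicate 2 or LPA+IFNt replicate 1 (adjusted p up to 0.132 in the others).

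PSMD6, another lid subunit, read 11.22, 11.25 and 11.34 in Control, 11.34, 11.27 and 11.31 with LPA, and 11.17, 11.09 and 11.07 with LPA+IFNt. Here LPA+IFNt was the group apart, below all others, with a fall of 0.20 against LPA (SE 0.04, adjusted p = 0.0390, and 0.054 in the blocked fit) and a difference of -0.16 from Control (adjusted p = 0.0941). A dimmer probe set of PSMD6 differed from LPA by 0.04, without a call. PSMD10, or gankyrin, is a chaperone that assembles the base. It read 9.58, 9.47 and 9.43 in Control, 9.48, 9.47 and 9.33 with LPA, and 9.78, 9.68 and 9.93 with LPA+IFNt. All LPA+IFNt arrays lay above the others, by 0.37 over LPA (SE 0.07, adjusted p = 0.0258) and 0.30 over Control (adjusted p = 0.0621, or 0.0465 without LPA+IFNt replicate 2). Each of Control replicate 2, LPA replicates 1 and 3 and LPA+IFNt replicate 3 ended both calls against LPA when left out, as did LPA+IFNt replicate 1 for PSMD10 and replicate 2 for PSMD6 (adjusted p up to 0.0771 and 0.131).

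PSMD2, a scaffold that receives substrates and shuttle factors, read 11.97, 11.76 and 11.81 in Control, 11.73, 11.65 and 11.53 with LPA, and 11.68, 11.53 and 11.54 with LPA+IFNt. Both treated groups lay below Control. The differences of -0.21 (adjusted p = 0.518) and -0.26 (adjusted p = 0.119) did not pass, and the second did in the blocked fit (adjusted p = 0.018). PSMD14, the deubiquitinase of the lid, differed from Control by 0.01 with LPA+IFNt, and PSMD1, the other large scaffold, by -0.14. Among the other ATPases, PSMC3 and PSMC6 differed from Control by 0.11 and 0.10 with LPA+IFNt. PSMC1 differed by 0.03 with LPA and by -0.14 between LPA+IFNt and LPA (adjusted p = 0.444, and 0.038 in the blocked fit).

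The genes left out by the rule, measured on the same arrays, were all 4 called higher with LPA+IFNt and none with LPA alone. Over all probe sets 2.48% were called higher with LPA+IFNt against Control. PSMB8 read 7.23, 6.77 and 7.17 in Control and 8.47, 8.34 and 8.55 with LPA+IFNt, a rise of 1.40 (SE 0.17, adjusted p = 0.00278). PSMB9 rose by 2.25 (SE 0.19, adjusted p = 0.000466) and PSMB10 by 1.36 (SE 0.22, adjusted p = 0.0117). The 95% intervals of PSMB5, PSMB6 and PSMB7, whose places these take, ended at 0.01, 0.07 and 0.08. USP18 read 6.50, 6.82 and 6.75 in Control and 12.12, 12.51 and 12.13 with LPA+IFNt, a rise of 5.56 (SE 0.15).

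**Figure D3:**
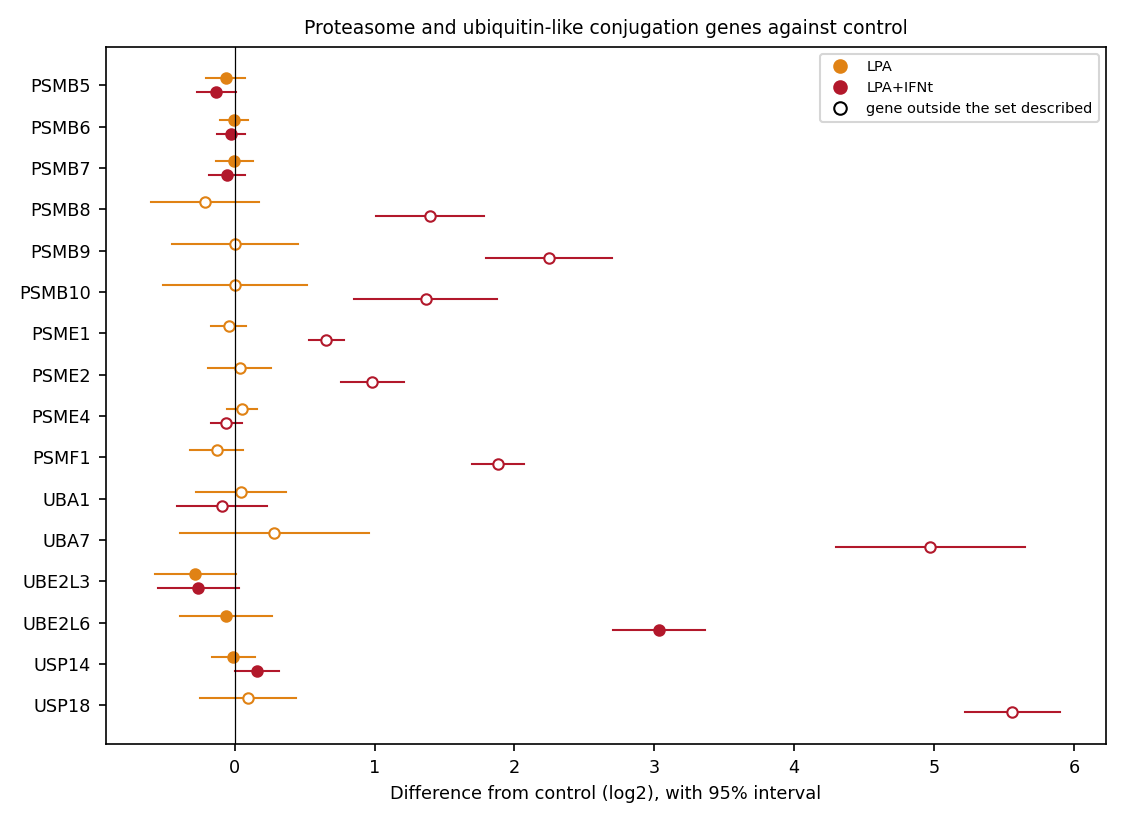
Difference from Control on the log2 scale (horizontal axis) with its 95% interval, for LPA (orange) and LPA+IFNt (red); filled points belong to the 81 genes and open points do not. The LPA+IFNt points of PSMB5, PSMB6 and PSMB7 lie at -0.13, -0.03 and -0.05 and those of PSMB8, PSMB9 and PSMB10 at 1.40, 2.25 and 1.36. UBE2L6 lies at 3.03 and UBE2L3 at -0.26, and with spike-in centring PSMB6 and PSMB7 turn to 0.08 and 0.06.

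Other genes of the pathway were taken from lists. Among 4 measured activators and inhibitors of the core, the PA28 subunits PSME1 and PSME2 rose by 0.65 (adjusted p = 0.000373) and 0.98 (adjusted p = 0.000992) over Control, and PSMF1, the inhibitor PI31, by 1.88 (adjusted p = 8.22e-06). PSME4, the PA200 activator, differed by -0.06. The 81 genes hold PSMD5, PSMD9 and PSMD10 of the assembly chaperones. Outside them, other assembly factors, further 19S subunits and the transcription factors NFE2L1 and NFE2L2 gave 0 of 8 calls in each comparison. At an unadjusted p under 0.05 there were also 0, beside 8.30%, 16.7% and 17.5% of all probe sets in the 3 comparisons. The assembly factor POMP differed from Control by 0.02 with LPA+IFNt.

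Of 7 E1 activating enzymes, 1 was called, or 14.3%, higher in both LPA+IFNt comparisons. Over all probe sets 2.48% were called higher against Control and 2.56% against LPA. UBA7, which activates ISG15 and hands it to UBE2L6, read 4.75, 4.41 and 4.37 in Control, 5.16, 4.05 and 5.16 with LPA, and 9.49, 9.35 and 9.60 with LPA+IFNt, a rise of 4.97 over Control (SE 0.29, adjusted p = 4.87e-05). UBA1, the main activating enzyme of ubiquitin, differed by -0.09. In the list of the ISG15 system, 5 of 6 genes rose over Control, ISG15 by 6.63, UBA7, USP18, HERC6 by 2.41 and TRIM25 by 0.52, and HERC5 differed by -0.13. UBA7 and USP18 stand in 2 lists each. The 4 ubiquitin precursor genes had no probe set under their name alone.

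Deubiquitinases outside the USP family gave 2 higher and 1 lower of 16 with LPA+IFNt against Control, beside 2.48% and 2.86% of all probe sets. At an unadjusted p under 0.05 there were 8, or 50%, beside 16.7% of all probe sets. Groups did not overlap for 9, or 56.25%, beside 23.1% of all probe sets. ATXN3, a Josephin-domain protease, read 6.98, 6.92 and 6.98 in Control, 7.40, 7.20 and 7.47 with LPA, and 8.88, 8.75 and 8.98 with LPA+IFNt. It rose by 1.91 over Control (SE 0.08, adjusted p = 6.99e-06), and its LPA arrays lay between both groups. CYLD, which removes K63-linked and linear chains in NF-kappaB signalling, rose by 0.43 (adjusted p = 0.0227), and BRCC3, a K63-specific protease, fell by 0.31 (adjusted p = 0.0196). Against LPA, ATXN3 and OTUD4 rose and BRCC3 and ZRANB1 fell, beside 2.56% of all probe sets called higher and 3.98% called lower.

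Shuttle factors and the VCP complex gave 0 of 11 calls in each comparison. At an unadjusted p under 0.05 there were 2, 0 and 3, or 18.2%, 0% and 27.3%, beside 8.30%, 16.7% and 17.5% of all probe sets. Cullin, RING and related ligases gave 0 of 19 calls against Control for either treatment. At an unadjusted p under 0.05 there were 1 with LPA and 6 with LPA+IFNt, or 5.26% and 31.6%, beside 8.30% and 16.7% of all probe sets. With LPA+IFNt 10 of the 19 lay wholly below Control and 1 above, 57.9% together, beside 23.1% of all probe sets. The median difference was -0.17, beside 0.02 over all probe sets. Against LPA 1 was called, CUL7, which fell by 0.88 (adjusted p = 0.0264), beside 3.98% of all probe sets called lower. LPA alone gave no call in any of these lists.

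Stromal markers moved in the same comparisons as the falls of UBE2 and USP genes. Of 15, 3 fell with LPA+IFNt against Control, COL3A1 by 0.51, COL1A1 by 0.39 and FBN1 by 0.39, and 5 against LPA. Those are 20% and 33.3% of the markers, beside 2.86% and 3.98% of all probe sets called lower. The summed stromal level was 16.65 to 16.78 in Control, 16.72 to 16.84 with LPA and 16.49 to 16.52 with LPA+IFNt on the log2 scale. The epithelial sum was 15.73 to 15.82, 15.74 to 15.77 and 15.76 to 15.83, with CDH1 higher by 0.21 against Control and SPINT2 lower by 0.45 against LPA among 13. Each is 7.69% of the markers, beside 2.48% of all probe sets called higher against Control and 3.98% called lower against LPA. The leukocyte sum was 8.15 to 8.40, 8.33 to 8.68 and 8.06 to 8.26, with CD53 called higher in LPA+IFNt, by 1.26 over Control. It was the only call of 13 against Control, or 7.69%, beside 2.48% of all probe sets called higher. The part of these markers in the results was not tested, and fewer cells of a type cannot be told apart from less RNA per cell in these pools.

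The calls differed in how they held under 17 other ways of analysing the same arrays. UBE2L6 was called in 17 of 17 for both LPA+IFNt comparisons and USP46 in 16 of 17 for both. UBE2T against Control and USP28 against LPA were called in 15 of 17 each. PSMC5 was called in 11 and PSMD10 in 9, against LPA. UBE2H was called in 7 against Control, and UBE2E3 there in 3. The remaining calls against LPA held in 4 to 6.

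**Figure D4:**
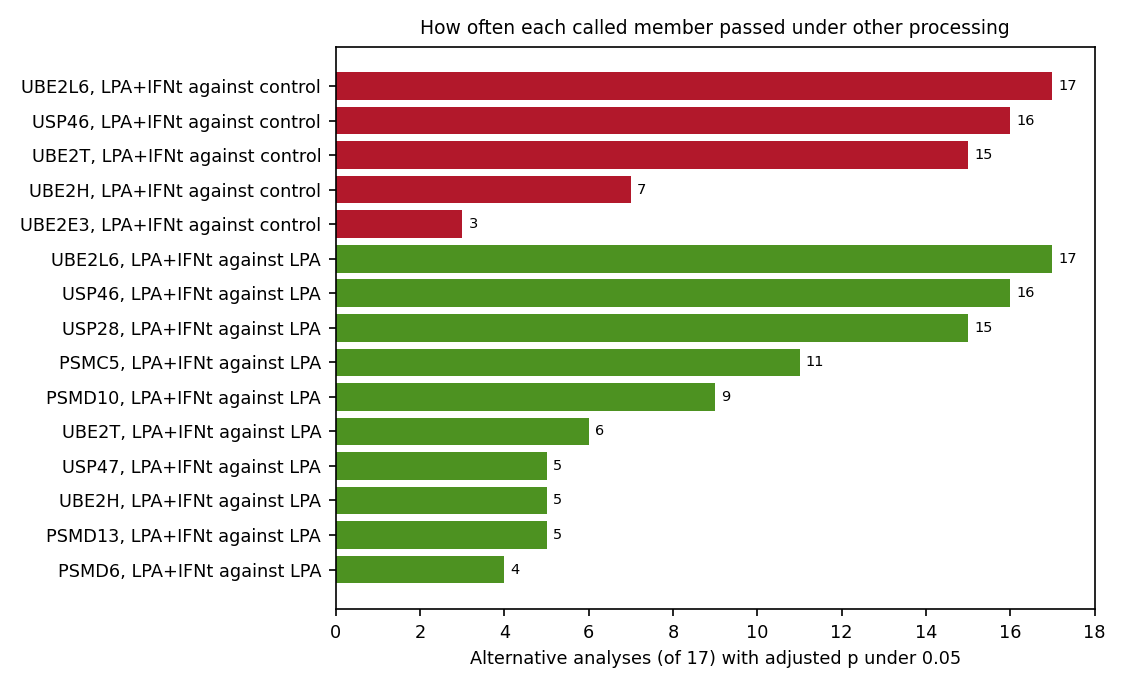
Number of alternative analyses, of 17, in which each called gene kept an adjusted p under 0.05 (horizontal axis), for LPA+IFNt against Control (red) and against LPA (green). Of the 17, 9 leave out 1 array, and UBE2L6 and USP46 have the longest bars in both comparisons.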

How the data were processed

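The authors deposited log2 values per probe set for 9 arrays, for which the submitters' processing notes name RMA and Partek, without versions. Base 2 is inferred from what RMA normally gives and from the range of values. RMA makes array distributions alike, so a shift of most transcripts would be hidden, and the number of arrays limits precision. No build is named, so no coordinates are given, and no sequence of a member was used here.

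After 112 control probe sets were left out, 24016 of 24128 were tested in R 4.3.3 with limma 3.58.1 (lmFit and eBayes, two-sided, all 9 arrays, no covariate, no filter), with Benjamini-Hochberg adjustment over all of them in each comparison and a threshold of 0.05. Intervals are the model's 95% intervals, not adjusted. The F test over the groups is limma's. Names came from the array's annotation, of which RefSeq's ARS-UCD2.0 table held 13283 of 13318 single symbols and changed 0. Of the probe sets tested 13292 had 1 symbol, 86 had several and 10638 had none. The 81 genes have 107 probe sets. Of the 24 genes with several, 22 had probe sets of unlike sign in at least 1 comparison, and for 5 they differed in call, in each case a dimmer one without a call (UBE2H, USP46, USP28, PSMC5 and PSMD6).

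Replicate numbers paired the samples: all 9 pairs of arrays with the same number in different groups had deviations from the group means that correlated, with r of 0.19 to 0.49, against -0.47 to 0.14 for the 18 other pairs. The number was therefore fitted as a block beside the fit without it. The members and gene lists were chosen with earlier results of these data known. Named are all genes past the threshold, at least 2 of each family by the smallest p, and PSMB5, PSMB6, PSMB7, UBE2L6, UBE2N, USP14 and USP15. Alternatives were centring on array medians or on 42 spike-in probe sets, no variance moderation or one with an intensity trend, dim probe sets left out, probe sets of a gene averaged, only the 2 groups compared in the fit, the block, and each array left out in turn. The fit was run on simulated data with known changes, drawn for each array independently. That simulation held no effect of the replicate number, so it cannot show how the fit behaves where the number matters.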

Additional observations from a re-analysis of the deposited data

How the results depend on the processing

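Counts of called genes for LPA against Control, LPA+IFNt against Control, LPA+IFNt against LPA and the F test were 0, 5, 10 and 8. Spike-in centring gave 1, 2, 1 and 2, with USP37 and UBE2L6 as the genes called. It shifts all values of an array by 1 constant, and the medians of the 81 became 0.084 and 0.117 for the 2 LPA+IFNt comparisons, beside 0.13 and 0.15 over all probe sets. Without variance moderation there were 3, 4 and 2 in the last 3 of these. An intensity trend gave 6 against LPA, and averaging probe sets gave 6 against LPA and 5 by the F test. With only the compared groups fitted there were 4 against LPA and 6 against Control, where USP14 and USP47 were gained and UBE2E3 lost. The replicate block, which pairs arrays of the same number, gave 9 against Control and changed no call other than those named with it above and in the F test, where it gave 10. The cause was not tested. Leaving out 1 array gave 0 to 1, 2 to 5, 3 to 11 and 2 to 10 calls, with fewer arrays fitted, and medians of -0.026 to 0.019, -0.034 to -0.017 and -0.045 to 0.010. The share of all probe sets called was counted only for the main fit, the centrings and the block. For the other settings a loss of calls among these genes cannot be told from a loss over the whole array.

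No reversed value was called. Spike-in centring turned PSMB5 to 0.07 against LPA, PSMB6 to 0.084 against Control and 0.108 against LPA, PSMB7 to 0.056 and 0.079, and UBE2N to 0.081 against Control. Averaging probe sets turned UBE2L6 to 0.15 and USP14 to 0.06 with LPA alone. Over arrays left out, differences of LPA from Control ran from -0.037 to 0.019 for PSMB6, -0.052 to 0.060 for PSMB7, -0.026 to 0.076 for PSMC1, -0.18 to 0.067 for UBE2L6 and -0.085 to 0.059 for USP14. LPA+IFNt ran from -0.060 to 0.0035 against Control and -0.048 to 0.0064 against LPA for PSMB6, and against LPA from -0.015 to 0.031 for UBE2N and -0.029 to 0.066 for USP15. Of the other values for single genes, 865 kept direction and side of the threshold, 104 lost a call and 10 gained one.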
